A study of Mus musculus with 3 samples.

Results

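The 10 genes described here encode transcription factors that direct early lineages of the mouse embryo: Gata2, Gata4, Gata6, Sox17, Foxa2, T, Eomes, Sox1, Neurog1 and Cdx2. They were chosen by name as lineage regulators held to be silent in embryonic stem cells, and stand against 22367 protein-coding genes of GENCODE M1 on the autosomes, X and Y. No RNA was measured, so their silence could not be checked in these cells. DNA methylation (5mC) at CpG sites is laid down by DNA methyltransferases, and TET enzymes oxidise it stepwise to 5hmC, 5fC and 5caC. Starts of developmental regulators commonly lie in CpG-rich DNA that stays free of 5mC whether or not the gene is transcribed. In stem cells many of them carry Polycomb marks, and 5hmC is known to collect at the edges of such unmethylated DNA.

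The data came from E14 mouse embryonic stem cells (mESCs), an established line, grown on gelatin with serum, LIF and the inhibitors PD0325901 and CHIR99021. Their gDNA was read by 3 methods with 1 library each: TAPSβ for 5mC, CAPS for 5hmC and PS for 5fC and 5caC together, all of which turn the modified base into T. By their chemistry, TAPSβ and CAPS also convert 5fC and 5caC. With no replicates, levels carry exact (Clopper-Pearson) 95% intervals that cover counting error of the reads alone, and no test between methods was possible. A level is the share of reads over CpG cytosines that show the modified base, summed over a region. The median cytosine had 13 reads in TAPSβ and 9 in either other library. Over all cytosines TAPSβ read 57.5%, CAPS 3.14% and PS 0.246%. Of the promoters of 13 pluripotency genes, 12 lay under 15% TAPSβ, from 0% in Pou5f1 to 9.80% in Nanog, and Esrrb read 41.1%. That is all these methylation data can say of the labelled cell type.

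Starts were the outer bounds of the genes in GENCODE M1 (NCBIM37, the mm9 build), and a promoter is the 1 kb centred on the start. Sox1 was found in that annotation under no symbol of its own. Its start was placed at position 12395519 of chromosome 8, plus strand, where the RefSeq promoter sequence of GRCm38.p6 matched NCBIM37 exactly, inside the annotated gene Gm5607. For Gata4, 5 of the 6 annotated coding transcripts start inside the outer bound, and the longest begins 26.4 kb within it, in DNA of a different kind. The 250 bases before a start show the contrast in CpG content, with every CpG in capitals.
Neurog1, chr13:56353525-56353774 (- strand): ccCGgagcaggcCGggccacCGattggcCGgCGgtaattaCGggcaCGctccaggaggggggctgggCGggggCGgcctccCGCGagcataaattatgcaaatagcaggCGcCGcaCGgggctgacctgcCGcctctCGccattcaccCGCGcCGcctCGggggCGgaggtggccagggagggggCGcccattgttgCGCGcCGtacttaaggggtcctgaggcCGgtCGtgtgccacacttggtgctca
Sox17, chr1:4486495-4486744 (- strand): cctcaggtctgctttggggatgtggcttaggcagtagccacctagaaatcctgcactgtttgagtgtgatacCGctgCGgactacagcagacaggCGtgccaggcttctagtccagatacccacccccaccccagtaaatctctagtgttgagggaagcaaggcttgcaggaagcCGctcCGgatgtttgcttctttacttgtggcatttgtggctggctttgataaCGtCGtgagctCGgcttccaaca
Gata4 upstream start, chr14:63890530-63890779 (- strand): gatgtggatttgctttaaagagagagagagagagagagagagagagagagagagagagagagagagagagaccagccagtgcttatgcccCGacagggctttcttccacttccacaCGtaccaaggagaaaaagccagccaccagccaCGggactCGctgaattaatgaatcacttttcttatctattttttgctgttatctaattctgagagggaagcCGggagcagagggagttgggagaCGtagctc
Gata4 inner start, chr14:63864109-63864358 (- strand): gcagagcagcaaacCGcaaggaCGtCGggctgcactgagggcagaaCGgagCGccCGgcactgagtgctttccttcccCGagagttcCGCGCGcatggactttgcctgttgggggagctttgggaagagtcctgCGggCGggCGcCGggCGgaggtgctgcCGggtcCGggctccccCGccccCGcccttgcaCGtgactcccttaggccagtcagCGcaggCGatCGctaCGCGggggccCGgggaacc
In these stretches Neurog1, a bHLH factor that commits precursors to a neuronal fate, holds 27 CpGs. Sox17, an HMG-box regulator of endoderm, holds 8. Gata4, a zinc finger factor of endoderm and heart, holds 6 before its outer start and 26 before the inner start.

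Of the 10 promoters, 9 lay under 15% TAPSβ, where 63.1% of all protein-coding promoters with at least 50 reads in each library did. The lowest was that of Cdx2, a homeobox factor of trophectoderm and intestine, with 7 modified of 1936 TAPSβ reads (0.362%, interval 0.145 to 0.744). Sox1, an HMG-box factor of early neural ectoderm, read 0.373% (0.161 to 0.733) and Neurog1 0.459% (0.244 to 0.783). Gata6, a GATA factor of primitive endoderm, read 0.619% (0.320 to 1.08). These 4 intervals overlap, so their order is not resolved.

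T (Brachyury), the T-box factor of the primitive streak, read 1.08% (0.680 to 1.64) and Eomes, a T-box factor of mesendoderm and trophoblast, 1.31% (0.753 to 2.12). Gata2, which serves blood progenitors, read 2.49% (1.90 to 3.19), and Foxa2, a forkhead factor of endoderm and notochord, 3.50% (2.52 to 4.72). Sox17 followed at 7.99% (6.22 to 10.1), and its interval touched none of those below it.

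Gata4 stood apart with 193 modified of 285 TAPSβ reads (67.7%, 62.0 to 73.1) over 12 CpGs. At the start of its longest coding transcript the level was 1.62% (1.10 to 2.29), in the range of the other 9 genes. A separate coding start 58.1 kb inside the outer bound read 68.4%. Gata2 also has a second coding start, 4.77 kb downstream, and it read 3.47% (2.71 to 4.36). Pooled over the 10 promoters, TAPSβ was 2.60% (2.37 to 2.85), against 5.71% over all coding promoters. Gata4 alone gave 193 of the 437 modified reads. Without it the pooled level was 1.48%, against 1.38% over all coding promoters under 15% TAPSβ.

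CAPS in the promoters ran from 0.530% in Sox1 (0.172 to 1.23) to 4.96% in Sox17 (3.24 to 7.24). The interval lay above 0.72%, the background rate used in the calls below, in 3 genes: Sox17, Gata2 (1.96%, 1.22 to 2.98) and Eomes (1.68%, 0.897 to 2.86). The other 7 could not be told from that rate at this depth. Over all coding promoters 39.4% had such an interval, and 25.2% of those under 15% TAPSβ, so 3 of 10 is near the background. Among coding promoters under 15% TAPSβ, 98.4% had a lower CAPS level than Sox17. The pooled promoter level of the 10 genes was 1.42% (1.18 to 1.70), against 1.39% over all coding promoters and 1.01% over those under 15% TAPSβ.

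PS in the promoters ran from 0 of 231 reads in Gata4, which allows up to 1.58% by the upper bound of the exact interval, to 9 of 1231 in Cdx2 (0.731%, 0.335 to 1.38). Cdx2 was the only gene of the 10 whose PS interval lay above the 0.27% rate used for PS calls. Such an interval was found in 2.13% of all coding promoters and in 1.89% of those under 15% TAPSβ. Of all coding promoters, 95.8% had a lower PS level than Cdx2. Pooled, the promoters read 0.291% (0.196 to 0.415), against 0.276% over all coding promoters.

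**Figure D1:**
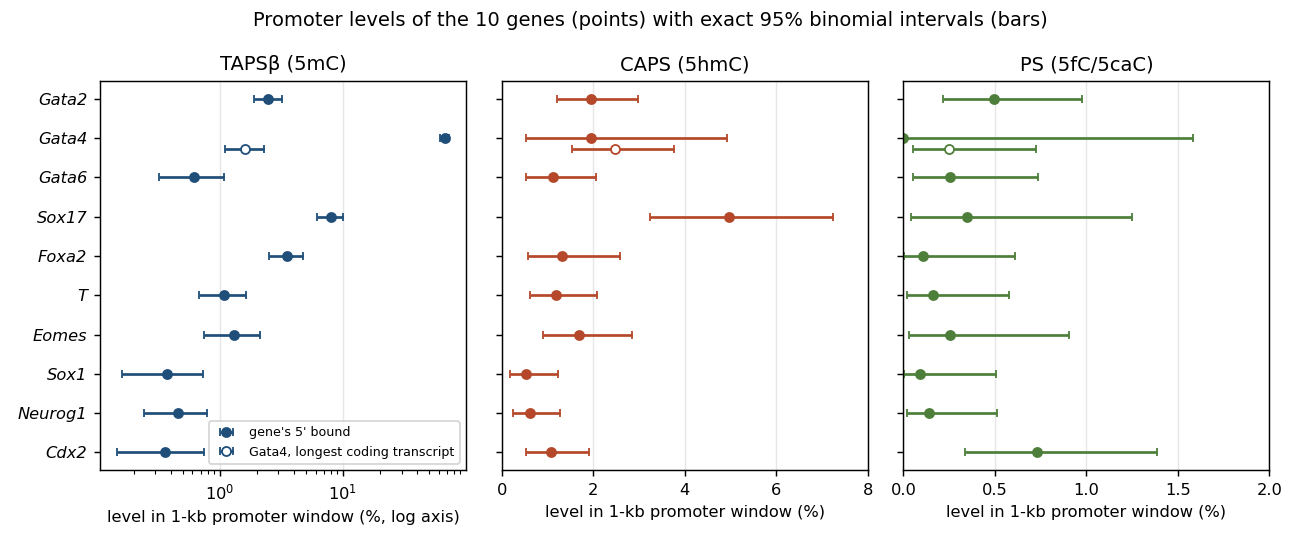
TAPSβ, CAPS and PS levels (%) in the 1-kb promoter of each gene, with exact 95% binomial intervals as bars; the TAPSβ axis is logarithmic and the open point is the inner Gata4 start. On TAPSβ, 9 genes sit between 0.362% and 7.99% and Gata4 at 67.7%, and on CAPS Sox17 is highest at 4.96%.

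The region under 15% TAPSβ around each start was followed outward in 200-bp windows until 2 informative windows in a row reached the threshold. Gata6 had the widest, 5.6 kb, with 2.4 kb upstream and 3.2 kb downstream. Cdx2 followed with 4.0 kb, Eomes with 3.6 kb, Sox1 with 3.4 kb and Foxa2 with 3.2 kb. T spanned 2.4 kb, Neurog1 2.0 kb, Sox17 1.8 kb and Gata2 1.2 kb, and Gata4 had no such region at its outer bound.

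Of the 9 regions, 6 reached farther downstream of the start than upstream. Foxa2 had 3.0 kb downstream against 0.2 kb upstream, Cdx2 3.4 kb against 0.6 kb and Sox1 2.6 kb against 0.8 kb. Sox17 and T were arranged the other way, with 1.4 kb upstream against 0.4 kb downstream and 1.6 kb against 0.8 kb, and Eomes had 1.8 kb on each side. From the inner start, Gata4 had a region of 1.8 kb, and from its second start Gata2 had one of 2.6 kb.

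The median width was 2.8 kb. Over all coding genes with enough reads it was 1.2 kb, and over those with a promoter under 15% TAPSβ 1.8 kb. A width of at least 5 kb was reached by 1 of the 10 genes, Gata6, and by 2.15% of coding genes. Among 38 other lineage regulators, the median was 1.4 kb, from 0 kb in 9 genes (Gata1, Tbx5, Tbx6, Tbr1, Msgn1, Hnf4a, Myf5, Elf5 and Hhex) to 6.2 kb in Gsc, a homeobox factor of the organizer. Of these 38 promoters, 26 lay under 15%. Widths in the gene lists and over all coding genes were taken at the outer bound. Starts inside that bound were examined for the 10 genes alone, and from such a start a width can differ, as in Gata4. The 13 pluripotency genes found in the annotation had a median of 7.2 kb, from 0 kb in Esrrb to 17.6 kb in Zfp42. The 14 housekeeping genes with enough reads had a median of 2.7 kb, from 0.6 kb in Rpl13a to 5.4 kb in Hsp90ab1. Apart from Gata6, each of the 10 genes had a narrower region than every pluripotency gene but Esrrb.

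**Figure D2:**
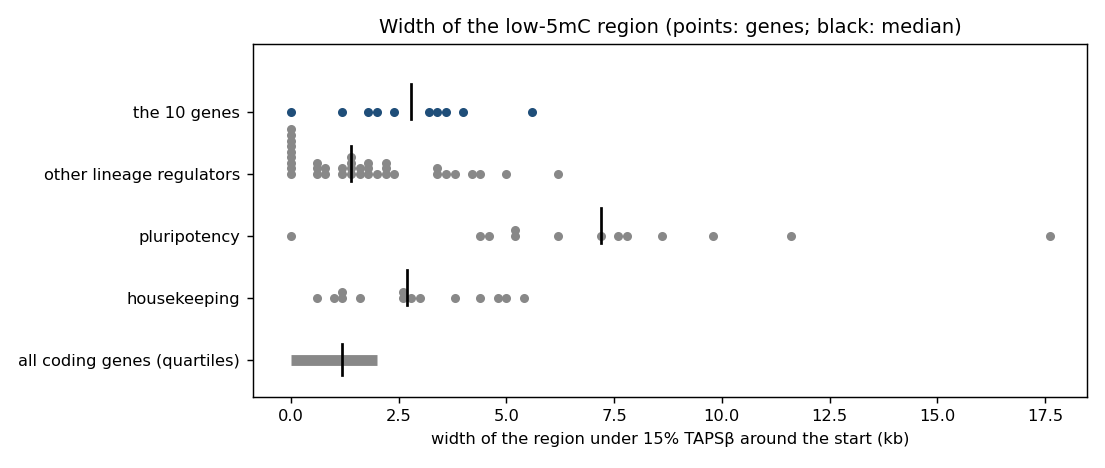
Width (kb) of the region under 15% TAPSβ around the start, each point 1 gene, the black bar the median, and for all coding genes the quartiles. The 10 genes lie between 0 and 5.6 kb with a median of 2.8 kb, and the pluripotency genes reach 17.6 kb.

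The low stretch at the start was not the only one nearby. In the 20 bins of 1 kb around each start, 9 of the 10 genes had at least 1 bin under 15% TAPSβ apart from the run at the start. The share was 37.1% over all coding genes with reads in every bin (6268 of 16917) and 38.7% over those with a promoter under 15%. This measure was defined after the bins of the 10 genes had been seen, so the contrast is a description. The 10 genes had a median of 6.5 bins under 15%, of which 3 lay apart, where coding genes with a low promoter had a median of 3 and 0. In the list of other lineage regulators 23 of 36 genes with reads in every bin had such a separate bin, in the pluripotency list 8 of 12 and in the housekeeping list 4 of 12.

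Sox17 showed the pattern most simply. TAPSβ was 6.5% in the kilobase before its start, 58.6% between 1 and 2 kb downstream, and 0.13% and 1.3% between 3 and 5 kb, in the 3′ part of this 5.49 kb gene. In Foxa2, 4.09 kb long, TAPSβ was 71.8% between 4 and 5 kb and then 9.2%, 1.2%, 5.8% and 6.7% in the following 4 kb, beyond the end of the gene. Gata2 had 3.9% between 4 and 3 kb upstream, and 4.3% and 1.4% between 3 and 5 kb downstream, around its second start. Neurog1 had 1.8% and 0.42% between 8 and 6 kb upstream.

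T had a single separate bin, at 0.54% between 5 and 4 kb upstream. Eomes had 2.9% in the outermost upstream kilobase and 4.0% and 3.1% in the outermost 2 kb downstream. Sox1 had 1.7% in its outermost upstream kilobase and 1.1% between 5 and 6 kb downstream. Cdx2 had 2.8% between 9 and 8 kb upstream and 0.63% between 7 and 8 kb downstream, past the end of the gene. Gata6 had 11.4% between 5 and 4 kb upstream and 8.1% between 6 and 7 kb downstream. Annotated neighbours lay within 10 kb of 5 starts: 1010001N08Rik by Gata6, 9030622O22Rik by Foxa2, 4930550C17Rik by Neurog1, Prhoxnb by Cdx2, and Gm5607 and AC102525.1 by Sox1. Their part in these bins was not tested.

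Gata4 had no bin under 15% around its outer bound, where the lowest was 25.7% between 2 and 3 kb downstream. Around the inner start it had 3, at 4.1% and 9.6% on either side of the start and 3.0% between 4 and 5 kb downstream.

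Of 17098 other coding genes, the 3 whose TAPSβ bins came nearest to the mean profile of the 10 genes were Ppp2cb, 1810032O08Rik and Stk38. Their root mean square differences over the 20 bins were 11.4, 12.3 and 13.1 percentage points. The 10 genes themselves were 19.6 (Gata6) to 27.6 (T) points from that mean. Because the 3 named genes were picked as the nearest of 17098, no comparison with these distances was drawn.

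**Figure D3:**
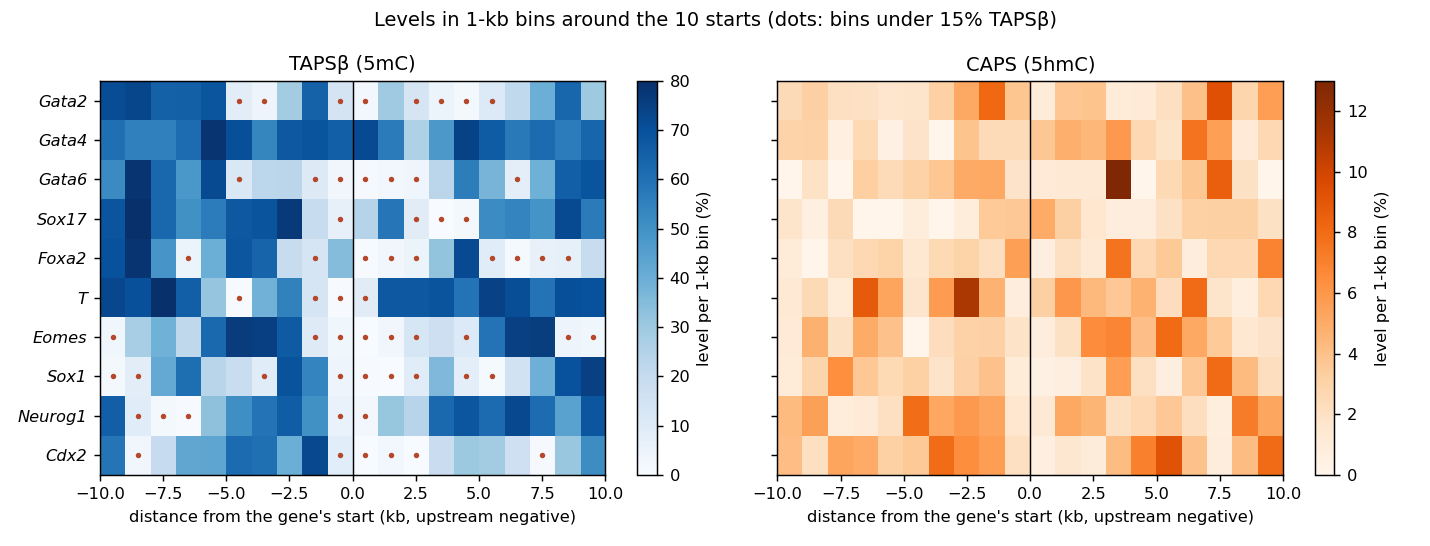
TAPSβ (left) and CAPS (right) levels in 1-kb bins from 10 kb upstream to 10 kb downstream of each start, with colour scales in percent and dots on bins under 15% TAPSβ. Low bins recur away from the start in 9 genes, and Gata4 has none.

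CAPS differed across the 18 borders of the 9 regions. In the 1 kb inside, cut at the middle of the region to 0.6 kb for Gata2 and 0.9 kb for Sox17, the pooled CAPS level was 1.73% (1.54 to 1.94), and in the 1 kb outside it was 5.61% (5.03 to 6.23). It was 3.84% (3.35 to 4.39) between 1 and 2 kb outside, 2.57% (2.20 to 2.98) between 2 and 3 kb and 2.75% (2.50 to 3.01) between 3 and 5 kb. The first outside kilobase exceeded the inside kilobase at 16 of 18 borders. It exceeded the kilobase between 1 and 2 kb out at 12 of 18, and the zones between 2 and 3 kb and between 3 and 5 kb at 15 of 18 each. Both exceptions to the first order were the borders of Sox17. Single borders were not counted in this way over all coding genes, so these counts have no background.

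TAPSβ, which set the borders, went from 2.85% inside to 40.4%, 29.4%, 15.8% and 16.3% over the same outer zones. These outer zones include the separate low stretches described above. Over all coding genes TAPSβ outside was 44.4% in the first kilobase and 49.5% to 51.8% in the farther zones. CAPS over all coding genes was 1.22% inside and 4.84%, 3.93%, 3.84% and 3.86% outside. PS was 0.285% inside and 0.287% in the first outside kilobase of the 10 genes, with overlapping intervals.

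The highest border value was downstream of Gata6, with CAPS at 13.95% (7.42 to 23.1) in the first outside kilobase, from 12 of 86 reads over 7 cytosines, against 1.88% (1.08 to 3.04) inside. There 1 CpG gave 9 of the 12 modified reads, and without it the level was 6.0% (1.25 to 16.5), an interval that overlaps the inside one. Upstream of T it was 9.07% (6.47 to 12.3) against 1.84% (1.08 to 2.94). Downstream of Eomes it was 7.74% (5.42 to 10.7) against 0.870% (0.399 to 1.65), and downstream of Foxa2 7.66% (4.81 to 11.5) against 1.23% (0.69 to 2.02). At these 4 borders the intervals of the inner and outer kilobase did not overlap. Without the CpG of most modified reads in each outer kilobase, T read 8.23% (5.69 to 11.4), Foxa2 7.11% and Eomes 6.97%. Their intervals stayed apart from those inside, unlike that of Gata6. With all CpGs counted, inner and outer intervals also lay apart at both borders of Neurog1, upstream of Gata2 and Foxa2, and downstream of T and Sox1. They overlapped upstream of Gata6, Eomes and Sox1, and downstream of Gata2. Cdx2 read 4.64% (2.67 to 7.42) outside its upstream border and 6.69% (4.08 to 10.3) outside its downstream one, each above the inside level. How often such intervals lie apart at the borders of all coding genes was not computed. The pooled CAPS of all coding genes rose across the border too, as given above.

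Sox17 ran the other way. CAPS was 4.96% (3.24 to 7.24) inside its downstream border, from the same 504 reads as its promoter, and 2.27% (0.471 to 6.5) outside, and 3.52% inside its upstream border against 2.06% outside, with overlapping intervals in both pairs. Sox1 was low on both sides upstream, with 0.499% inside and 1.97% (0.85 to 3.84) outside. At the inner Gata4 start, CAPS was 5.02% inside the upstream border and 6.89% outside. At its downstream border CAPS was 2.13% inside and 4.57% outside, and the intervals overlapped in both pairs.

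**Figure D4:**
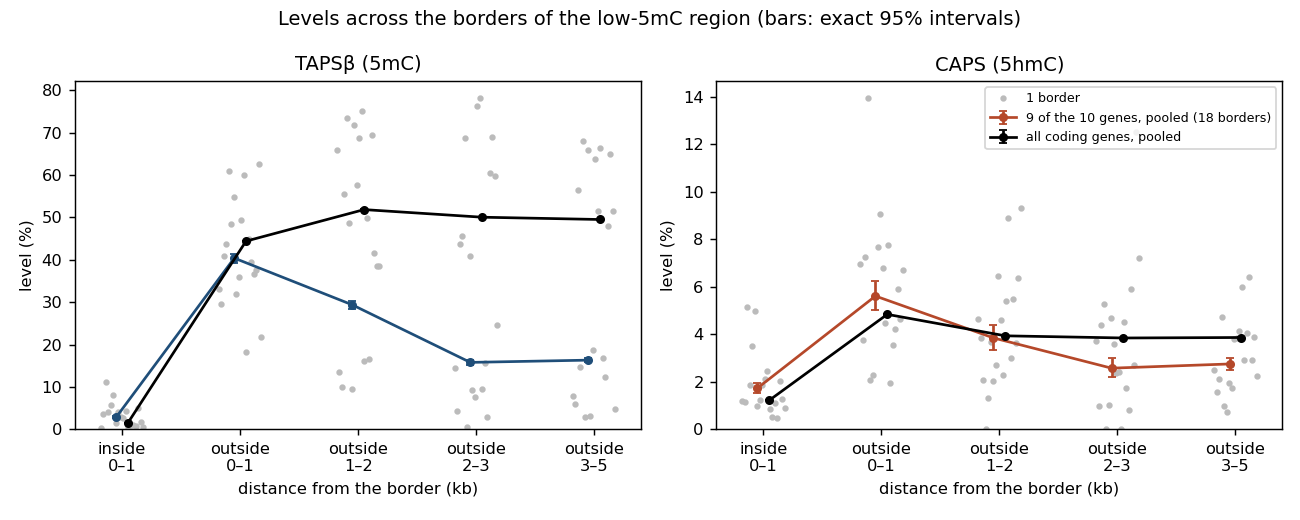
TAPSβ (left) and CAPS (right) levels (%) in zones inside and outside the borders of the low region, with the 18 borders of 9 genes as grey points, pooled values with exact 95% intervals in colour and all coding genes in black. Pooled CAPS is 5.61% in the first kilobase outside, above 1.73% inside and 2.57% between 2 and 3 kb out.

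The CAPS level of a 1-kb bin moved with its TAPSβ level in much the same way at the 10 genes as elsewhere. In bins under 5% TAPSβ, pooled CAPS was 1.17% (1.06 to 1.28) at the 10 genes and 1.03% at all coding genes. Between 5 and 15% it was 3.00% (2.75 to 3.27) against 2.91%. Between 15 and 35% it was 4.72% (4.33 to 5.13) against 5.14%, between 35 and 60% 5.08% (4.63 to 5.57) against 5.10%, and at 60% or more 3.05% (2.76 to 3.35) against 3.05%. CAPS was thus highest in bins of intermediate 5mC, in both sets. The all-gene value fell inside the interval of the 10 genes in 3 of the 5 classes and within 0.5 percentage points of their level in every class.

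**Figure D5:**
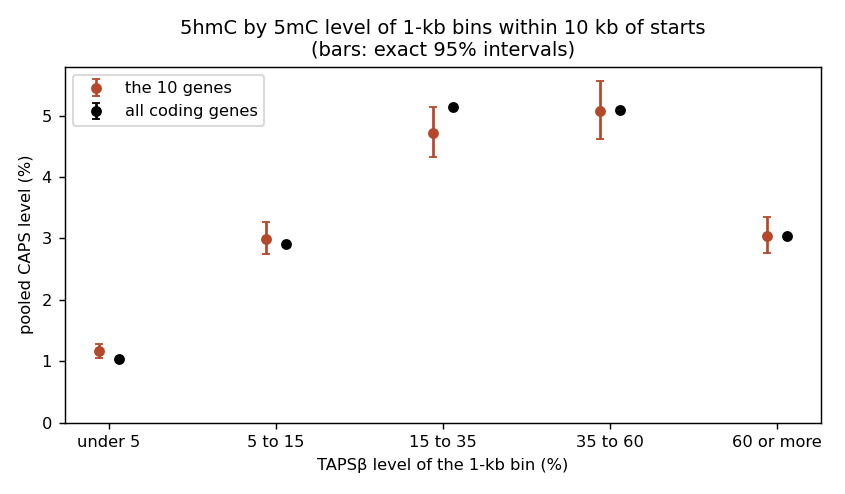
Pooled CAPS level (%) of 1-kb bins within 10 kb of starts, by the TAPSβ level of the bin, for the 10 genes (orange) and all coding genes (black), with exact 95% intervals. Both sets are lowest under 5% TAPSβ (1.17% and 1.03%), highest in the middle classes (5.08% and 5.14%) and at 3.05% from 60% on.

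Gene bodies spread over a wide range. Outside the promoter window, TAPSβ was lowest in Foxa2 (6.25%, 5.60 to 6.96), Sox17 (6.46%, 5.87 to 7.09), Cdx2 (7.53%, 6.94 to 8.15) and Neurog1 (8.49%, 7.09 to 10.1), all genes under 7 kb long. It was 16.5% in Gata2, 21.4% in Eomes, 35.2% in Gata6, 43.9% in Gata4 and 55.0% (53.2 to 56.9) in T. The last 5 genes are the longer ones, from 7.92 kb (Eomes) to 72.8 kb (Gata4). All 9 lay below the 58.9% median of coding gene bodies. A body leaves out just the promoter window, so it takes in the rest of the low region at the start. That region reached 3.0 kb downstream in Foxa2, 3.4 kb in Cdx2 and 1.4 kb in Neurog1. The bodies of Gata2 and Gata4 also hold their inner starts. All coding genes were cut in the same way, but gene lengths were not matched. For Sox1 no gene body was analysed here. On the plus strand lay Gata2 at chr6:88143885-88157024, Gata6 at chr18:11052508-11085633, T at chr17:8627288-8635361 and Eomes at chr9:118387330-118395250. On the minus strand lay Gata4 at chr14:63817759-63890529, Sox17 at chr1:4481009-4486494, Foxa2 at chr2:147868613-147872705, Neurog1 at chr13:56351866-56353524 and Cdx2 at chr5:148112381-148118846.

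Exons and introns parted in opposite ways, with TAPSβ higher in the introns of 5 of the 8 genes that have both and higher in the exons of 3. In T, exons read 41.1% (38.5 to 43.8) and introns 67.5% (65.0 to 69.8), and in Gata6 exons read 12.97% and introns 48.6%. Gata4 read 25.01% in exons and 46.5% in introns, Sox17 3.94% and 14.5%, and Eomes 19.1% and 26.2%. In Foxa2 the exons were the higher, 8.96% (7.97 to 10.03) against 2.05% (1.47 to 2.78), and in Cdx2 12.3% against 5.64%. Gata2 also had the higher level in exons, 23.3% against 13.8%. Neurog1 has no intron.

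CAPS in gene bodies ran from 1.13% (0.813 to 1.52) in Sox17 to 4.40% (3.58 to 5.34) in T. The pooled level was 3.28% (3.13 to 3.44), below the 3.50% over all coding gene bodies. Sox17, with the highest CAPS of the 10 in its promoter, had the lowest in its body. PS in gene bodies ran from 0.117% in Neurog1 to 0.333% (0.182 to 0.559) in Sox17, against 0.211% over all coding gene bodies. No gene body had a PS interval above the 0.27% rate.

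Single cytosines with 5hmC were called with a one-sided exact binomial test against a rate of 0.0072, on cytosines with at least 5 CAPS reads, and adjusted by Benjamini-Hochberg over all 36060655 cytosines tested in the genome. Within 10 kb of the 10 starts, 103 of 8625 cytosines were called (1.19%, 0.976 to 1.45), against 1.64% over the genome. The calls ran from 2 for Sox17 and 6 for Neurog1 to 16 for Cdx2. Of the 103, 80 lay in the 139 bins at 15% TAPSβ or more (2.49% of those tested, 1.98 to 3.09) and 23 in the 61 bins below (0.425%, 0.270 to 0.637). This split was not computed over the bins of all coding genes, where the pooled CAPS level also varied with the TAPSβ level. Of 883 promoter cytosines tested, 3 were called, 2 in Sox17 and 1 in Gata2. The share called over all coding promoters was not computed, so this count has no background.

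Support per call was thin, with 2 to 6 modified reads of 5 to 18. Of the calls 58 rested on 3 modified reads, and others on 2 of 5 or 6 reads, among them the promoter call of Gata2. Levels ran from 16.7% to 57.1% with a median of 33.3%. The opposite cytosine of the same CpG was also called at 6 CpGs, and at 91 CpGs 1 strand was called. PS read no modified base at 101 of the 103. Over the genome just 696594 of 36570167 cytosines with at least 5 PS reads had a modified one, so this is not particular to the calls. Of the calls 32 lay upstream of their gene, 29 in introns, 16 in exons, 11 downstream, and 15 around Sox1 without an annotated gene of that name. The cytosines tested in each of these places were not counted, so none can be called favoured.

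The best supported call of each gene, by modified reads, lay outside its promoter in every gene but Sox17. Promoters held just 883 of the 8625 cytosines tested, and both calls of Sox17 lay in its promoter. The count therefore says little about where calls fall. In Gata2 it was 1.13 kb upstream (5 of 14 CAPS reads, adjusted p = 3.54e-05) and in Neurog1 0.992 kb upstream (4 of 14, adjusted p = 0.000826), by the same exact test. In T it was 1.38 kb upstream (4 of 11, adjusted p = 0.00038, exact binomial test), inside the outer edge of its low region. In Eomes it lay 5.06 kb downstream in an intron (6 of 11, adjusted p = 1.47e-07, exact binomial test), in the bin with 8.0% CAPS. The sequences below, read along the gene from NCBIM37, give 61 bases around each of these 4 cytosines with the called CpG in capitals.
Gata2, chr6:88142723-88142783 (+ strand): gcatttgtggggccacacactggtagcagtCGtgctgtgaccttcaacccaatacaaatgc
Neurog1, chr13:56354486-56354546 (- strand): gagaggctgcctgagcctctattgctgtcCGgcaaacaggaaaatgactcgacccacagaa
T, chr17:8625875-8625935 (+ strand): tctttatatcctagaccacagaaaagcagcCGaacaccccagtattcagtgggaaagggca
Eomes, chr9:118392361-118392421 (+ strand): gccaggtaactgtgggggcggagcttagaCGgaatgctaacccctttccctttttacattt
At these 4 cytosines TAPSβ read 12 of 18, 6 of 13, 4 of 18 and 6 of 23, so 5mC was present in other reads of the same base. PS read 0 modified bases of 9 to 12 reads at each.

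Gata4 and Gata6 carried calls on both strands of a CpG. In a Gata4 intron 6.90 kb downstream, 1 strand had 6 of 14 modified CAPS reads (adjusted p = 7.72e-07, exact binomial test) and the other 2 of 6. In a Gata6 intron 3.37 kb downstream, the CpG that raised the first kilobase past its downstream border, the strands had 6 of 18 (adjusted p = 3.7e-06, exact binomial test) and 3 of 18. Cdx2 had its best call in the untranslated part of the last exon, 5.72 kb downstream, with 4 of 11 on 1 strand and 3 of 8 on the other. The best call of Foxa2, 7.56 kb downstream, lay in a low stretch, and TAPSβ read 0 of 9 there against 4 of 10 in CAPS. Sox1 had 3 of 7, 7.61 kb upstream, and Sox17 3 of 9, 46 bp into its first exon (adjusted p = 0.00484, exact binomial test).

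The same test on PS, against a rate of 0.0027, called 1 of 9439 cytosines (0.0106%), where 0.0791% were called over the genome. It lay 4.33 kb upstream of Gata4, with 5 of 14 PS reads modified and 2 of 9 in TAPSβ. At 35.7% PS it would be dropped by the filter that set aside cytosines at 20% PS or more as variant-like, which was not applied to PS itself, and no PS call would be left. CAPS made no call at that cytosine. For the other 9 genes no PS call was made, which at between 695 and 1425 cytosines tested per gene allows shares of up to 0.259% (Sox1) to 0.529% (T) by the exact interval.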

How the data were processed

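gDNA of E14 mESCs was sequenced by TAPSβ, by CAPS and by PS, in 1 library per method. Per the labels and the study's methods, the authors trimmed reads with Trim Galore (0.3.1), aligned them to mm9 with BWA (0.7.12), dropped duplicates with Picard (2.3.0) as well as poorly mapped reads, and counted bases with asTair. They deposited, per CpG cytosine, the counts of modified and unmodified base calls and a fraction rounded from them. The deposited counts were used, and the fraction served as a check. Every listed position was a CpG cytosine of NCBIM37.

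Reads were summed over regions with every listed cytosine and no minimum depth, so deep cytosines weigh more. Windows of the walk needed 20 TAPSβ reads, and the walk was limited to 50 kb a side. All-gene promoter levels and widths used promoters with at least 50 reads in each library (20595 genes), gene bodies the same minimum over the body (20509 genes), and bins at least 20 TAPSβ reads in the bin, with no promoter minimum in the CAPS levels by TAPSβ class. All-gene border values used regions of at least 1 kb with both borders found. The study set aside artifact-prone regions and known E14 variants after counting, and neither was removed here, so a C-to-T variant would read as modified in all 3 libraries. CAPS calls used the binomial test, rate and minimum depth that the study's methods give for 5hmC. Those methods do not say over which cytosines p-values were adjusted, and here it was all with 5 or more reads. PS calls by the same test, at the false-positive rate of PS, are an addition made here. No group had replicates, so no spread between cultures is known. The code was tested on simulated data. For CAPS depths on chromosome 19, cytosines made with levels of 10%, 20%, 40% and 60% were called in 8.62%, 33.8%, 79.2% and 96.1% of cases, so most cytosines of low 5hmC go uncalled.

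The members, gene lists and alternatives were chosen with earlier results of these data known. Named genes were the 10 members, the best supported CAPS call of each, the 3 nearest profiles, and the widest and narrowest gene of each list, and where more than 1 gene had a width of 0 all were named. Other genes of the lists were named after their values had been seen. One gene of the pluripotency list, Tfcp2l1, was not analysed here, nor was Hprt of the housekeeping list, whose promoter had 0 reads. No sequence is given for Gata6. Analyses ran in Python 3.11.15 with scipy 1.17.1 and numpy 2.4.6, reading tables with pandas 2.3.3, and figures were drawn with matplotlib 3.10.9.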

Additional observations from a re-analysis of the deposited data

How the results depend on the processing

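Of 73 alternatives that left all genes in, 61 stayed within the exact interval of the reported level, or within 1.5 times the reported width or count. The 61 include alternatives that changed nothing. Leaving out cytosines of high coverage, for example, altered no pooled level and no count of calls. Pooled promoter TAPSβ was 5.23% with 1000 bp on each side of the start and 1.57% from the start of the longest coding transcript, against 2.60%. Pooled gene body TAPSβ was 27.4% at 10 or more reads, 30.3% as a mean over cytosines, 27.9% on the sense strand, 28.9% on the antisense strand and 25.9% over the whole gene, and whole-gene CAPS was 3.12%. CAPS inside the borders was 2.19% at 10 or more reads. CAPS calls numbered 65 of 3730 cytosines at 10 or more reads, where 1.96% were called over the genome, and 358 of 1700 when adjusted over cytosines with a modified read, where 22.8% were called over the genome. In that last setting PS calls numbered 221 of 226, against 97.0% over the genome. It tests just cytosines picked for having a modified read, so nearly all pass for PS, and its CAPS and PS counts are not taken as calls. Without the CpG of most modified CAPS reads at each border, a choice made after seeing the data that can just lower the level, pooled CAPS outside was 4.79%. Under the other alternatives it stayed between 5.29% and 5.95%, and the median width between 2.5 and 2.9 kb. Leaving out 1 gene at a time gave promoter TAPSβ of 1.48% (without Gata4) to 3.04%, promoter CAPS of 1.19% to 1.55%, promoter PS of 0.231% to 0.315%, gene body TAPSβ of 19.6% (without Gata4) to 30.6%, gene body CAPS of 2.94% to 3.45%, CAPS outside the borders of 5.25% to 6.06% and inside of 1.52% to 1.88%, CAPS calls of 87 to 101 and PS calls of 0 (without Gata4) to 1. No paired analysis was possible because each method had 1 library and no result compares replicates.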

Other observations

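Among the 38 other lineage regulators, promoter CAPS reached higher levels than in any of the 10 genes. Gata1, the erythroid GATA factor, read 13.3% CAPS with 37.7% TAPSβ, and Msgn1, a bHLH factor of presomitic mesoderm, 12.7% with 39.1%. Hand1, a bHLH factor of trophoblast and heart, read 9.76% with 25.7%. These 3 promoters had 105, 307 and 410 CAPS reads and were, like those below, picked after their values had been seen. At the other end the 4 lowest in TAPSβ were Sox21 (0.182%), Lhx1 (0.290%), Neurog2 (0.313%) and Isl1 (0.351%). In the pluripotency list the promoter of Esrrb, an orphan nuclear receptor, read 41.1% TAPSβ and 12.4% CAPS. All values of listed genes are from the outer bound, and their other annotated starts were not examined.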
